A study of Mus musculus with 8 samples.

Results

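The genes of 8 S100 proteins and 2 annexins were examined in mouse sensory neurons: S100a11, S100a10, S100a6, S100a4, S100a1, S100a13, S100a16, S100b, Anxa1 and Anxa2. They were taken by symbol from a table of 43372 gene symbols, and all 10 were found. The genes were selected on family membership with their counts in the 2 neuron populations known, so the difference between the populations in those counts is given for the 10 genes as a description and no test of it is relied on. The study sequenced RNA from neurons of the dorsal root ganglion (DRG), the sensory ganglion beside the spinal cord, in C57Bl/6 mice of either sex aged 3 to 5 weeks. The Sst libraries came from mice with the Ssttm2.1(cre)Zjh allele (Sst-IRES-Cre), in which Cre recombinase is made from the somatostatin locus, and the Trpv1 libraries from mice with the Trpv1tm1(cre)Bbm allele (Trpv1-IRES-Cre), in which it is made from the locus of the capsaicin receptor. All pups had received at postnatal day 2 an intraperitoneal dose of an AAV9 virus in which the CAG promoter drives a Cre-dependent eGFP or tdTomato, and the labels do not say which colour a library had. From each mouse 150 to 250 fluorescent neurons were hand-picked and pooled, with 4 independent samples per genotype, so each value is the mean of a pool and a cell entered it only if virus and Cre had both been active there.

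S100 proteins are small calcium-binding proteins that mostly work as dimers: when calcium rises they open a surface that grips partner proteins. Annexins are calcium-dependent proteins that bind membrane phospholipids and serve in membrane repair, vesicle traffic and the anchoring of proteins under the plasma membrane. Members of the families bind each other, and known pairs include S100a10 (also called p11) with annexin A2 and S100a11 with annexin A1. In DRG neurons p11 is known for carrying the sodium channel Nav1.8 to the cell surface.

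The libraries held 7419027 to 12153109 counts. All 10 markers of sensory neurons that were listed, among them Tubb3 and Snap25, were counted, with summed levels of 6222 to 6915 CPM (counts scaled to a library of common size and composition) in the Sst libraries and 4257 to 4947 CPM in the Trpv1 libraries. Snap25 weighed most in these sums, with means of 4034 CPM in Sst and 1991 CPM in Trpv1 libraries. It was the 1 of the 10 called higher in the Sst libraries (edgeR adjusted p = 3.63e-05), where 3.04% of all tested genes were called higher. The other 9 were not called, and the median log2 fold change of the 10, Sst over Trpv1, was -0.03. The pituitary hormone genes Gh and Prl together held 4182 counts in Sst replicate 2 and 12393 to 14166 counts in Trpv1 replicates 1, 2 and 3, and at most 1 count in the other 4 libraries. Trpv1 replicates 1 and 2 held 825 and 860 counts of Y-linked genes and 0 of Xist, while the other 6 libraries held Xist and 0 Y-linked counts. Values without these libraries are given for several of the results that they move.

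S100a11 and S100b were the members with the widest gaps between the populations, in opposite directions. S100a11, a partner of annexin A1, stood at 21.9, 7.70, 8.58 and 3.07 CPM in the Sst libraries against 256, 175, 301 and 176 CPM in the Trpv1 libraries. Every Sst library lay far below every Trpv1 library, and Sst replicate 1 was the highest of its group. The means were 10.3 ± 8.10 CPM in Sst and 227 ± 62.3 CPM in Trpv1 libraries (n = 4 each, SD), a log2 fold change, Sst over Trpv1, of -4.47 (SE 0.388), or 22.2-fold lower in the Sst libraries. Without Sst replicate 1 the log2 fold change was -5.15. In pooled cells, fewer cells of a type and less RNA per cell cannot be told apart.

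S100b, a calcium sensor best known from glia and also made by large sensory neurons, stood at 193, 213, 223 and 137 CPM in the Sst libraries against 73.4, 40.0, 57.0 and 70.7 CPM in the Trpv1 libraries. The groups did not overlap, with Sst replicate 4 the lowest of its group and still above every Trpv1 library. The means were 191 ± 38.6 CPM in Sst and 60.3 ± 15.3 CPM in Trpv1 libraries (n = 4 each, SD), a log2 fold change of 1.66 (SE 0.270), or 3.16-fold higher in the Sst libraries. S100a11 and S100b were the 2 members of the 9 tested that passed the edgeR threshold (adjusted p under 0.05), where 6.35% of all 11828 tested genes passed, and also the 2 whose groups did not overlap, where 11.1% of tested genes had no overlap, 5.43% with all Sst libraries above and 5.71% with all Sst libraries below. Since the members were chosen with this contrast known, nothing is read from those counts. The median log2 fold change over the 9 tested members was 0.00, and over all genes tested 0.01.

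**Figure D1:**
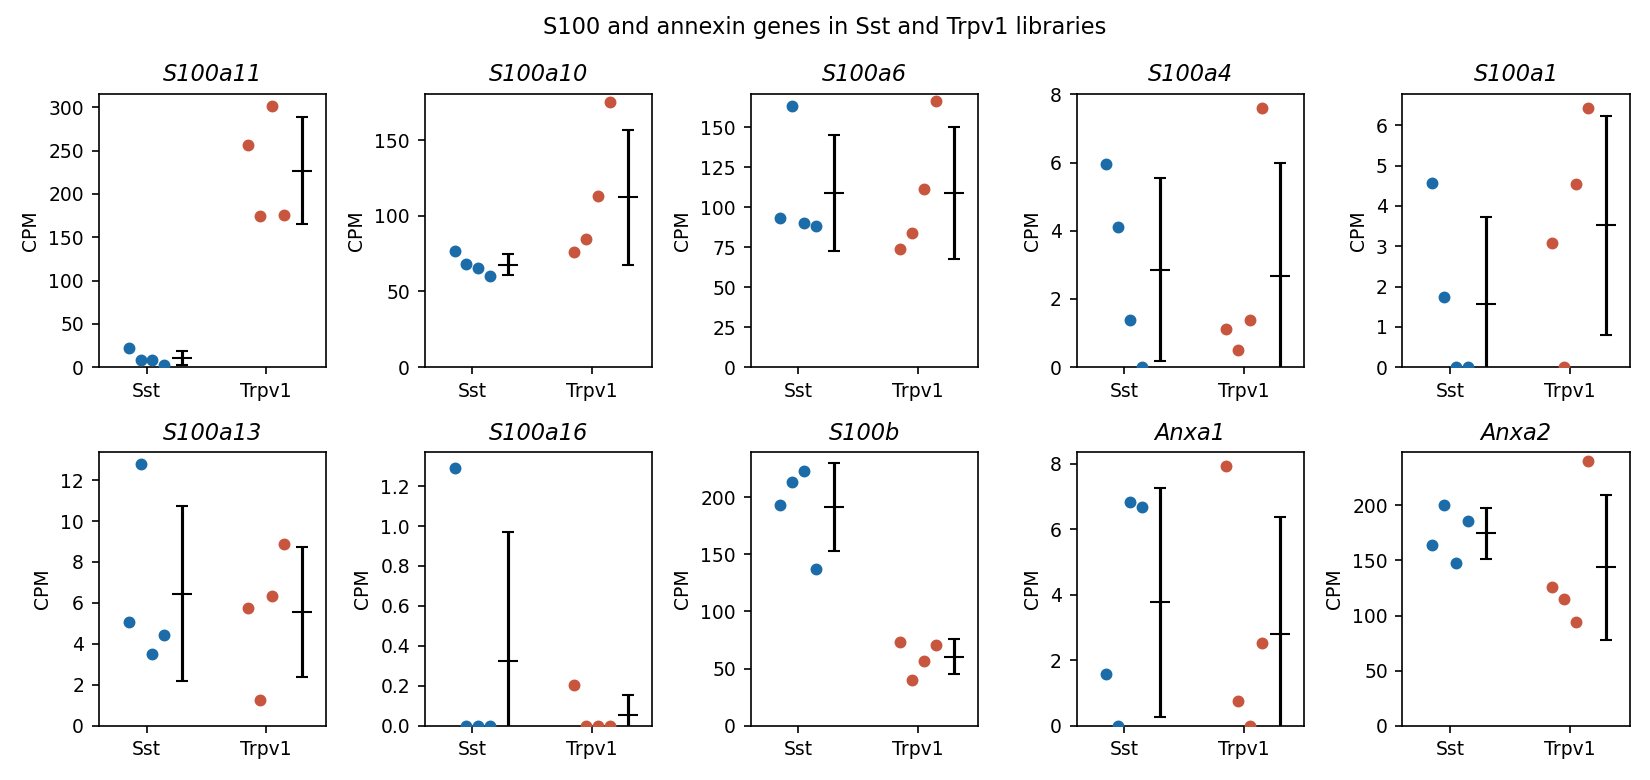
CPM of each member in each library (vertical axes, linear, starting at 0). Points are libraries in replicate order, Sst on the left and Trpv1 on the right, and black bars are the mean ± SD (n = 4 each), cut off at 0. S100a11 at 3.07 to 21.9 CPM in the Sst libraries lies below its 175 to 301 CPM in the Trpv1 libraries, S100b lies higher in the Sst libraries, and the other panels overlap.

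The stretch before the start site is shown for these 2 genes and for Anxa2, since a reader may want to see what lies upstream of the member that was low, the member that was high and an abundant member whose groups overlapped. The sequences are from RefSeq (GRCm38.p6), 250 bases up to the start site, read 5′ to 3′ on the strand of the gene. Start sites here are those of RefSeq and differ from the GENCODE M21 gene starts used for positions below. GENCODE starts Anxa2 at 69453620 and S100a11 at 93520488, both inside their windows, and S100b at 76253853, after its window. Of the 10 members 9 had an entry (10 windows, 2 of them of S100a16); S100a10 had none. Capitals mark TGANTCA, the core bound by AP-1 factors, and GGGCGG, the GC box, both searched on both strands, and no match overlapped another.
S100a11 (chr3:93520246-93520495, plus strand): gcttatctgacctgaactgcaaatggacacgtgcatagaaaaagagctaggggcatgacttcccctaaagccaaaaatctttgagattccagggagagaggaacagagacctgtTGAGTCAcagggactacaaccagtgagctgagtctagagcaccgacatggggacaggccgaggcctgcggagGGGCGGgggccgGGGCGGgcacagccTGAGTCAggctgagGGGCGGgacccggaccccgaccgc
S100b (chr10:76253586-76253835, plus strand): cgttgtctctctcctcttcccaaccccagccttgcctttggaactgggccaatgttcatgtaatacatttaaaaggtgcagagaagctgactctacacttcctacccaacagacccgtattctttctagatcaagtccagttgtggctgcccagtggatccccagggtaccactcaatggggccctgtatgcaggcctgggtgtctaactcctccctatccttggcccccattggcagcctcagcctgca
Anxa2 (chr9:69453433-69453682, plus strand): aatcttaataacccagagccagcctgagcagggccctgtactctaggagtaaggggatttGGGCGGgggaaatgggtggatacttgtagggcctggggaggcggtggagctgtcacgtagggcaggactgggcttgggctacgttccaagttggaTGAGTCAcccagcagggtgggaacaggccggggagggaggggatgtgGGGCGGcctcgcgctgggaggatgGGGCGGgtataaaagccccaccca
The S100a11 window held 2 matches to TGANTCA, whose first bases lie 136 and 38 bases before the start, and 3 to GGGCGG. The Anxa2 window held 1 match to TGANTCA, 95 bases before the start, and 3 to GGGCGG, and the S100b window held none of either. Among the 10 member windows 3 held TGANTCA and 3 held GGGCGG, against 6.75% and 32.7% of 32851 RefSeq windows of the same length. A match describes letters in a window and says nothing of a factor bound there.

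S100b is also a gene of glia, so the levels of glial markers stand beside it. The 10 satellite glia markers, all of them counted, summed to 413, 479.8, 365 and 746 CPM in the Sst libraries against 569, 504, 339 and 287 CPM in the Trpv1 libraries. The groups overlapped, and Sst replicate 4, the lowest of its group for S100b, was the highest of its group for these markers. The 10 Schwann cell markers, also all counted, summed to 371 to 605 CPM in the Sst libraries and 553 to 809 CPM in the Trpv1 libraries. Fabp7, a defining marker of satellite glia, averaged 65.4 ± 30.2 CPM in Sst and 81.1 ± 33.6 CPM in Trpv1 libraries (n = 4 each, SD). Other genes of the list ran the other way in their means: Glul, glutamine synthetase, had 287 CPM in Sst and 189 CPM in Trpv1 libraries, and the potassium channel gene Kcnj10 52.9 CPM in Sst and 35.5 CPM in Trpv1 libraries. Sox10, a transcription factor of both glial types, had 9.20 CPM in Sst and 3.56 CPM in Trpv1 libraries, without overlap. None of these 4 genes passed (edgeR adjusted p = 0.682 for Fabp7, 0.202 for Glul, 0.532 for Kcnj10 and 0.264 for Sox10). Glial RNA was thus counted in every library, and neither glial list summed higher in the Sst libraries beyond the spread between libraries (two-sided exact permutation of 4 against 4, p = 0.543 for satellite glia and 0.114 for Schwann cells, adjusted p = 0.651 and 0.274 over 12 lists).

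Markers of myelinated sensory neurons, the neurons in which S100b is known, moved with it. Of the 10, 9 were higher in the Sst libraries (edgeR quasi-likelihood F test, Benjamini-Hochberg adjusted p under 0.05) and 0 were lower, also at an unadjusted p, where 3.04% of all tested genes were called higher. The summed level was 8426 to 14119 CPM in the Sst libraries and 5484 to 6569 CPM in the Trpv1 libraries, without overlap (two-sided exact permutation of 4 against 4, p = 0.0286, the smallest that 4 against 4 allow, adjusted p = 0.0857). Ntrk2, a neurotrophin receptor gene, averaged 407 ± 64.5 CPM in Sst and 70.5 ± 30.9 CPM in Trpv1 libraries, and Nefh, the heavy neurofilament gene, 939 ± 253 CPM in Sst and 245 ± 87.3 CPM in Trpv1 libraries (n = 4 each, SD). The 6 peptidergic nociceptor markers, all called lower by the same test against 3.31% of all tested genes, moved with S100a11, at 42.8 to 122 CPM in sum in the Sst libraries and 1893 to 2592 CPM in the Trpv1 libraries. Of the 5 mural cell markers, which summed to 395 to 776 CPM in the Sst libraries and 166 to 328 CPM in the Trpv1 libraries, Rgs5 made up nearly all, with means of 544 CPM in Sst and 214 CPM in Trpv1 libraries, and was the 1 of 3 tested that passed (edgeR adjusted p = 0.00137). Pdgfrb averaged 2.96 CPM in Sst and 6.54 CPM in Trpv1 libraries, and the means of Acta2 and Tagln were likewise not above the Trpv1 means in Sst libraries. Myh11 ran the other way, at 4.37 CPM in Sst and 2.29 CPM in Trpv1 libraries, and did not pass (edgeR adjusted p = 0.676). The part of these cell classes in the levels of S100b and S100a11 was not tested.

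**Figure D2:**
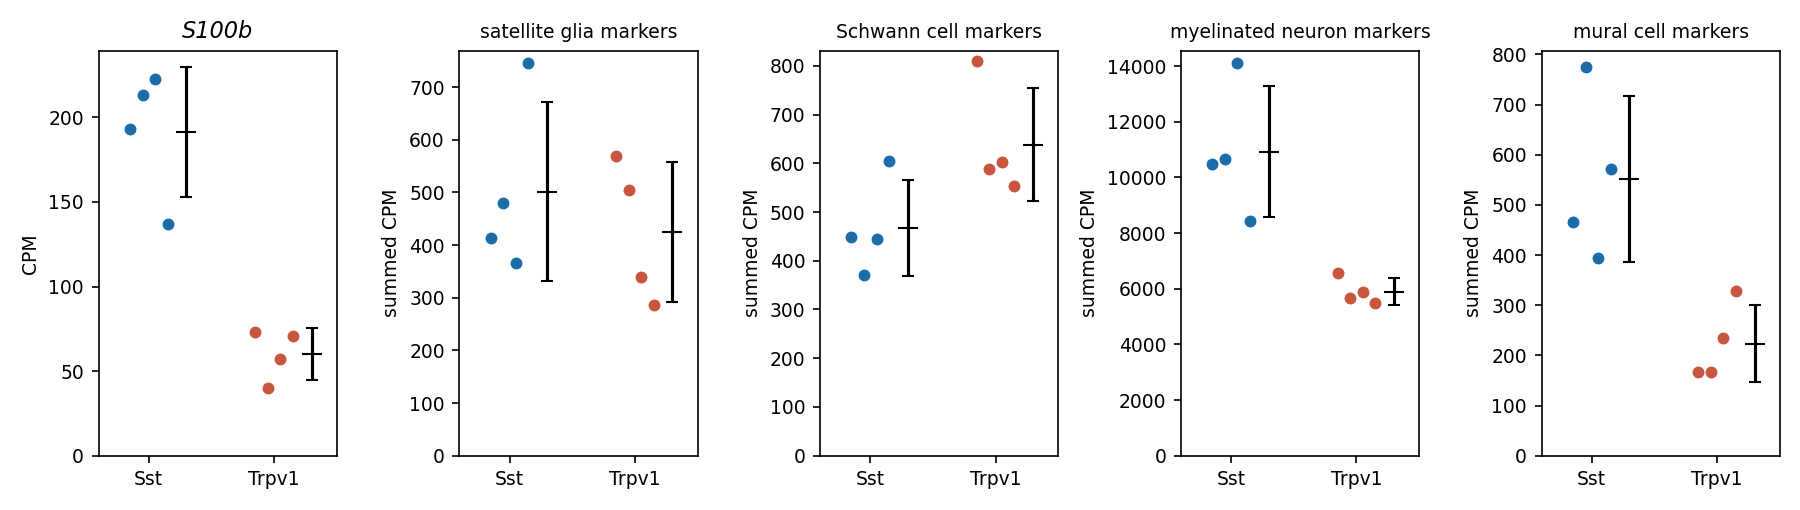
S100b (CPM) and the summed CPM of 4 marker lists in each library (vertical axes, linear, starting at 0), Sst on the left and Trpv1 on the right of each panel; black bars are the mean ± SD (n = 4 each). S100b, the myelinated neuron markers and the mural cell sum, which is nearly all Rgs5, are higher in every Sst library, while the satellite glia panel overlaps and the Schwann cell panel overlaps at 553 to 605 CPM.

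RNA of both parts of the p11 complex was counted in both populations, and the complex itself was not measured. S100a10, which has lost calcium binding and is held in its active form, stood at 76.6, 68.4, 65.8 and 60.4 CPM in the Sst libraries against 76.0, 84.8, 113 and 175 CPM in the Trpv1 libraries. The groups overlapped by a narrow margin, with Trpv1 replicate 4 well above the rest. The means were 67.8 ± 6.76 CPM in Sst and 112 ± 44.9 CPM in Trpv1 libraries (n = 4 each, SD), a log2 fold change of -0.73 (SE 0.294), which was -0.41 without Trpv1 replicate 4 and -1.34 in the 4 libraries with at most 10 counts of Gh and Prl. Anxa2 stood at 164, 200.1, 148 and 186 CPM in the Sst libraries against 126, 115, 94.0 and 240.4 CPM in the Trpv1 libraries. Here 3 Trpv1 libraries lay below all Sst libraries and Trpv1 replicate 4 above them all. The log2 fold change of Anxa2 was 0.27 (SE 0.269), 0.65 without Trpv1 replicate 4 and -0.50 in the 4 libraries with at most 10 counts of Gh and Prl, where the Trpv1 group is that replicate alone.

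Within a library the balance of the p11 partners can be read per length, as the ratio of CPM per kilobase of exon. S100a10 over Anxa2 was 1.44, 1.05, 1.37 and 1.00 in the Sst libraries against 1.86, 2.27, 3.70 and 2.24 in the Trpv1 libraries. The ratio was lower in every Sst library than in any Trpv1 library, and Trpv1 replicate 4, high for both genes, was in the middle of its group. The means were 1.22 ± 0.222 in Sst and 2.52 ± 0.810 in Trpv1 libraries (n = 4 each, SD). Exon lengths are unions over all annotated transcripts, so the size of the ratio depends on them, while its order among libraries does not.

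S100a6, which binds the ubiquitin ligase adaptor Cacybp, stood at 93.2, 163, 90.2 and 88.4 CPM in the Sst libraries against 74.0, 83.5, 111 and 166 CPM in the Trpv1 libraries. In the Sst group 3 libraries lay near each other and replicate 2 above them. The Trpv1 libraries were spread from 74.0 to 166 CPM, with replicate 4 the highest. The means were 109 ± 36.5 CPM in Sst and 109 ± 41.4 CPM in Trpv1 libraries (n = 4 each, SD), a log2 fold change of 0.00 (SE 0.296). Over 17 alternative fits the log2 fold change of S100a6 ran from -0.83 to 0.29, and 1 of them shifted it beyond the spread between libraries.

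The other 5 members were low. S100a13, which takes part in the export of Fgf1, held 38 to 118 counts in the Sst libraries and 10 to 84 counts in the Trpv1 libraries, and its log2 fold change was 0.14 (SE 0.709). S100a4, a binder of nonmuscle myosin, held 60, 38, 15 and 0 counts in the Sst libraries against 11, 4, 11 and 72 in the Trpv1 libraries, with the highest library 1 of 4 in each group. S100a1, known from heart and skeletal muscle, held 46, 16, 0 and 0 counts in the Sst libraries against 30, 0, 36 and 61 in the Trpv1 libraries. Anxa1, a partner of S100a11 and a ligand of formyl peptide receptors, held 16, 0, 74 and 74 counts in the Sst libraries against 77, 6, 0 and 24 in the Trpv1 libraries. These 3 genes were missing from at least 1 library of a group and high in another, and their log2 fold changes carried standard errors of 0.914 to 1.0. S100a16 held 13 counts in Sst replicate 1, 2 in Trpv1 replicate 1 and 0 elsewhere, and did not pass the filter on low counts. A library with 0 counts allows up to 3 counts; such limits cover counting error only.

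Per length, the order of the members differed between populations. In the Sst libraries S100b led at 129 ± 26.0 CPM per kilobase, then S100a6 at 79.6 ± 26.7, S100a10 at 55.9 ± 5.58, Anxa2 at 46.7 ± 6.19 and S100a11 at 20.2 ± 15.8 CPM per kilobase (SD, n = 4). In the Trpv1 libraries S100a11 led at 444 ± 122 CPM per kilobase, then S100a10 at 92.6 ± 37.0, S100a6 at 79.5 ± 30.3, S100b at 40.6 ± 10.3 and Anxa2 at 38.6 ± 17.6 CPM per kilobase. In the Trpv1 libraries S100a11 stood apart from its neighbour, with a lowest library at 342 against a highest of 145 CPM per kilobase for S100a10, the ranges of S100a10 and S100a6 and of S100b and Anxa2 overlapped, and those of S100a6 and S100b did not. In the Sst libraries the ranges of S100b and S100a6, of S100a10 and Anxa2 and of Anxa2 and S100a11 overlapped, while those of S100a6 and S100a10 did not.

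Summed per length, the 8 S100 members reached 219 to 362 CPM per kilobase in the Sst libraries and 503 to 821 in the Trpv1 libraries. S100a11 took 13%, 4.16%, 5.70% and 2.74% of that sum in the Sst libraries against 73.4%, 68.0%, 71.9% and 49.8% in the Trpv1 libraries. S100b took 39.5% to 51.0% in the Sst libraries and 4.68% to 7.27% in the Trpv1 libraries. The main S100 transcript was thus S100b in each Sst library and S100a11 in each Trpv1 library, on the scale per length. A ranking of genes within a library depends on the exon lengths used, here 511 bases for S100a11, 1212 for S100a10 and 1367 for S100a6. Before division by length, S100a11, S100a10 and S100a6 stood close together in Trpv1 replicate 4, at 176, 175 and 166 CPM.

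**Figure D3:**
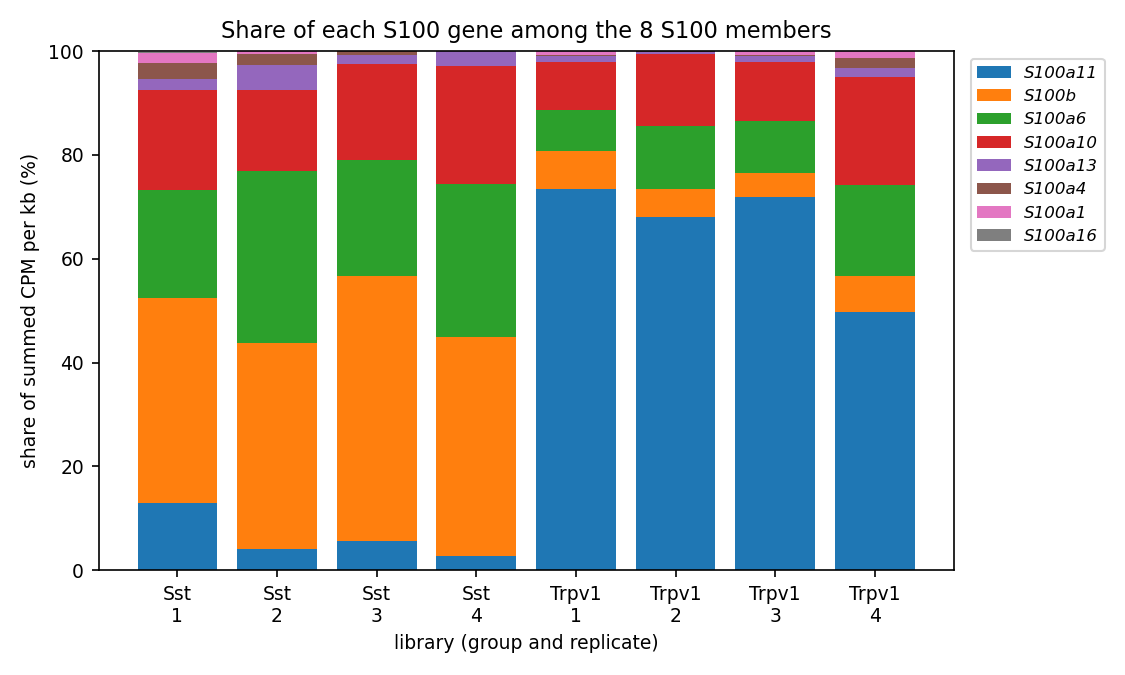
Share of each S100 member (colours) in the summed CPM per kilobase of the 8 S100 members, as a percentage (vertical axis, linear, from 0) for each library (horizontal axis, Sst replicates left, Trpv1 replicates right). S100a11 takes 2.74% to 13% in the Sst libraries and 49.8% to 73.4% in the Trpv1 libraries, with the lowest Trpv1 share in replicate 4. The shares depend on the exon lengths used.

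The member genes lie in 2 clusters on chromosome 3 and 3 single places (GRCm38, GENCODE M21). S100a1, S100a13, S100a16, S100a4 and S100a6 lie within 113148 bases (chromosome 3, 90511034 to 90624181), and S100a11 (93520488 to 93526287, plus strand) and S100a10 (93555080 to 93564643, plus strand) are neighbours with 28792 bases between them. S100a11 was 22.2-fold lower in the Sst libraries while its neighbour S100a10 was 1.66-fold lower, with overlapping groups. S100a1 and S100a13 point away from each other from starts that are 42 bases apart. S100b lies on chromosome 10 (76253853 to 76261159), Anxa2 on chromosome 9 and Anxa1 on chromosome 19. All 10 are protein-coding. An annotated gene Gm42674 overlaps 302 exon bases of S100a4 on the same strand, and Gm16144 overlaps 98 exon bases of Anxa2 on the other strand, so reads there are uncertain.

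Of the other S100 genes, 9 symbols were in the table, 4 had 0 counts in all libraries and 2 passed the filter. S100a9, a subunit of the neutrophil protein calprotectin, stood at 1.39, 0, 0 and 1.35 CPM in the Sst libraries against 11.5, 3.56, 1.52 and 16.1 CPM in the Trpv1 libraries, with a log2 ratio of -3.58 (SE 1.0; edgeR adjusted p = 0.0285). It was the 1 gene called lower of the 2 tested, against 3.31% of all tested genes, and 0 were called higher in edgeR, DESeq2 or limma voom and 0 at an unadjusted p under 0.05. The call ended without Sst replicate 1, 2, 3 or 4 or Trpv1 replicate 1 or 4 (edgeR adjusted p from 0.0535 to 0.104). It also ended in limma voom (adjusted p = 0.156) and with the older edgeR estimator (adjusted p = 0.189). S100a9 was likewise not called in the 6 libraries with Xist or in the 4 libraries with at most 10 counts of Gh and Prl. Over all its alternatives the adjusted p ran from 0.0240 to 0.189. Its partner S100a8 averaged 0.429 ± 0.858 CPM in Sst and 2.75 ± 1.31 CPM in Trpv1 libraries (n = 4 each, SD; edgeR adjusted p = 0.192). Limma voom called 1 of the 2 genes lower, and as S100a9 did not pass there, that gene was S100a8. A list of 10 neutrophil granule genes, drawn up after these values were seen, summed to 0, 0, 1.56 and 19.1 CPM in the Sst libraries and to 29.4, 29.1, 1.39 and 16.8 CPM in the Trpv1 libraries. Neutrophil genes were near 0 in 3 Sst libraries and in Trpv1 replicate 3, and the part of such cells in the S100a9 counts was not tested.

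Annexins outside the member list moved in both directions. Of 10 listed, 5 were tested, 1 was higher and 1 was lower in the Sst libraries, and 3 did not pass, where 3.04% of all tested genes were called higher and 3.31% lower. Anxa5, which coats membranes that expose phosphatidylserine, stood at 224, 186, 171 and 176 CPM in the Sst libraries against 360.4, 415, 373 and 539 CPM in the Trpv1 libraries. Every Sst library lay below every Trpv1 library, and the log2 fold change was -1.16 (SE 0.207, edgeR adjusted p = 0.000806). Anxa6, an annexin with a doubled core that binds membranes and the cortical cytoskeleton, stood at 241, 413, 286 and 226 CPM in the Sst libraries against 157, 135, 95.9 and 178 CPM in the Trpv1 libraries. Every Sst library was higher, and the log2 fold change was 1.04 (SE 0.247, edgeR adjusted p = 0.0112). The Anxa6 call ended without Sst replicate 2 (at 0.84, edgeR adjusted p = 0.0609) and in the 6 libraries with Xist (1.11, edgeR adjusted p = 0.103). Neither Anxa5 nor Anxa6 was called in the 4 libraries with at most 10 counts of Gh and Prl. Over 17 alternatives the log2 fold change of Anxa6 ran from 0.54 to 1.18. Anxa7 averaged 92.5 ± 10.9 CPM in Sst and 88.0 ± 16.4 CPM in Trpv1 libraries (n = 4 each, SD), and Anxa4 11.7 ± 5.23 CPM in Sst and 3.13 ± 1.94 CPM in Trpv1 libraries, without overlap (edgeR adjusted p = 0.118).

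**Figure D4:**
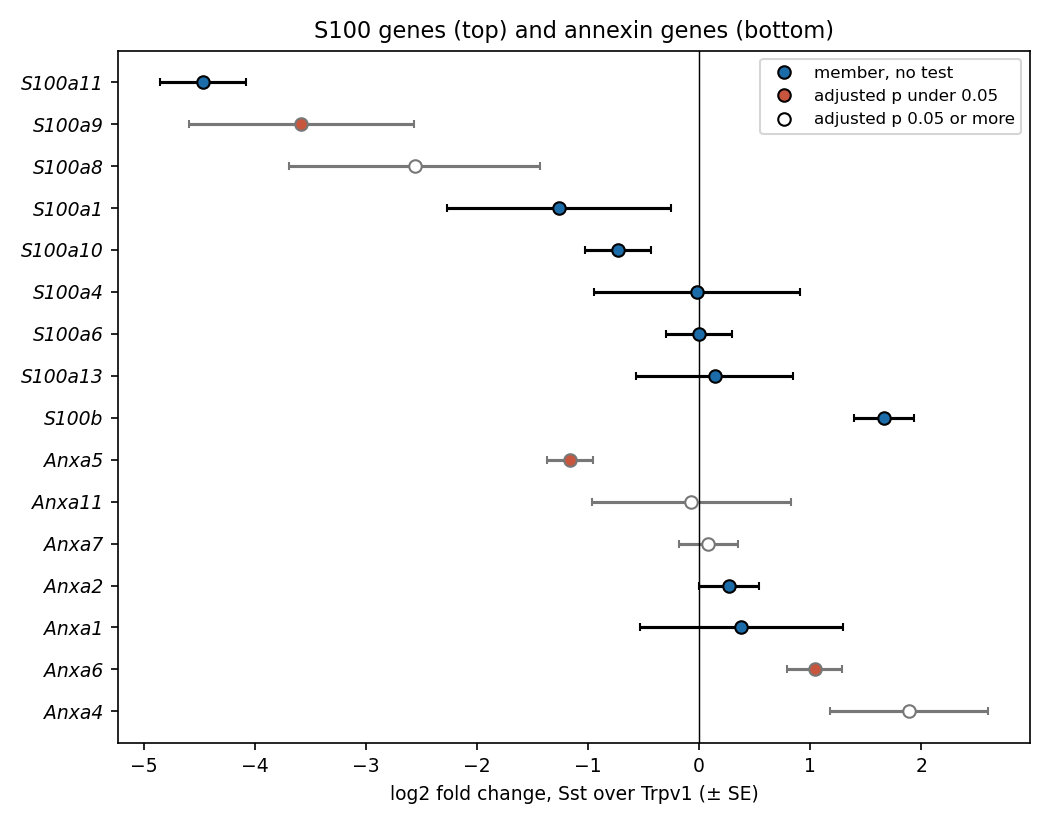
Log2 fold change, Sst over Trpv1, ± SE (horizontal axis) for the tested S100 genes (upper rows) and annexin genes (lower rows), fitted with edgeR over 4 Sst and 4 Trpv1 libraries. Blue points are members, given without a test; red points are other genes with an adjusted p under 0.05 and white points other genes above it. S100a11 at -4.47 and S100b at 1.66 lie at the ends of the S100 members, and Anxa5 at -1.16 and Anxa6 at 1.04 are the annexins that passed.

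The genes of proteins that p11 binds were next compared. Of 14 listed clients 10 were tested, 1 was higher and 1 was lower in the Sst libraries, and 8 did not pass, where 3.04% of all tested genes were called higher and 3.31% lower, with a median log2 fold change of -0.08 against 0.01 over all genes. The 2 that passed are serotonin receptors that p11 binds. Htr1d stood at 77.3, 53.5, 52.0 and 88.4 CPM in the Sst libraries and had a single count in the Trpv1 group, in replicate 3, a ratio of 2380.0 (95% exact interval 427 to 94100.0, for counting error only and not for amplification or the spread between libraries; edgeR adjusted p = 1.57e-06). Htr1b stood at 0.297, 1.63, 0 and 0 CPM in the Sst libraries against 13.7, 17.7, 11.4 and 12.8 CPM in the Trpv1 libraries, with a log2 ratio of -4.94 (SE 0.996; edgeR adjusted p = 0.00221). Without Sst replicate 2 that fitted value was -7.00, with 3 counts left in the Sst group. The 2 receptors that passed were thus split between the populations, each near 0 where the other was counted. Htr4, another serotonin receptor gene of the list, held 14 counts in the Sst and 88 in the Trpv1 libraries and did not pass the filter.

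Scn10a, the gene of Nav1.8, stood at 693, 654, 662 and 963 CPM in the Sst libraries against 731, 895, 849 and 962 CPM in the Trpv1 libraries. The groups overlapped, with with a log2 ratio of -0.21 (SE 0.177; edgeR adjusted p = 0.558). Ahnak, the giant scaffold that the p11 complex binds and the gene with the highest CPM of the list, stood at 1180.5, 1347, 1471 and 2131 CPM in the Sst libraries against 1105, 1199, 704 and 1172 CPM in the Trpv1 libraries, with a log2 ratio of 0.55 (SE 0.194; edgeR adjusted p = 0.0949). Asic1, an acid-sensing channel gene, averaged 21.0 ± 7.01 CPM in Sst and 16.2 ± 6.83 CPM in Trpv1 libraries, and Kcnk3, the TASK-1 leak channel gene, 3.41 ± 3.41 CPM in Sst and 14 ± 11.2 CPM in Trpv1 libraries (n = 4 each, SD). Neither passed (edgeR adjusted p = 0.703 and 0.111).

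Of 24 listed targets of the other S100 proteins 21 were tested, and 3 were lower in the Sst libraries, 0 were higher and 18 did not pass, where 3.04% of all tested genes were called higher and 3.31% lower. At an unadjusted p under 0.05 edgeR gave 2 higher and 5 lower, and DESeq2 and limma voom called 0 higher. Fgf1, the growth factor whose release involves S100a13, stood at 697, 848, 478 and 307 CPM in the Sst libraries against 1422, 933, 1258 and 1169.8 CPM in the Trpv1 libraries, with a log2 ratio of -1.04 (SE 0.232; edgeR adjusted p = 0.00639). Mapt, the gene of tau, which S100b binds, stood at 246, 233, 212 and 235 CPM in the Sst libraries against 399, 504, 362 and 539 CPM in the Trpv1 libraries, with a log2 ratio of -0.96 (SE 0.199; edgeR adjusted p = 0.00348). Both were lower in every Sst library, and both calls ended in the 6 libraries with Xist (edgeR adjusted p = 0.0825 for Fgf1 and 0.0640 for Mapt). Fgf1 and Mapt were also not called in the 4 libraries with at most 10 counts of Gh and Prl. Tlr4, a receptor of S100a8 and S100a9, stood at 1.29, 0, 0 and 0.181 CPM in the Sst libraries against 8.34, 6.87, 20 and 2.01 CPM in the Trpv1 libraries (log2 ratio -4.58, SE 1.18; edgeR adjusted p = 0.0187). Its call ended without Sst replicate 2 or 3 or Trpv1 replicate 3 (edgeR adjusted p from 0.0552 to 0.0787), in limma voom (adjusted p = 0.0907), with the older edgeR estimator (0.0761), in the 6 libraries with Xist (0.0802) and in the 4 libraries with at most 10 counts of Gh and Prl (0.700), and over all its alternatives the adjusted p ran from 0.00273 to 0.700. Without Sst replicate 1 its fitted value was -6.87. Ager, the receptor RAGE through which secreted S100 proteins signal, held 43 counts in all, in Trpv1 replicates 3 and 4, and was not tested.

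Annexin receptors were scarcely counted. The formyl peptide receptor genes Fpr1 and Fpr2 held 11 and 14 counts, each in 1 library, and Fpr3 held 0. Of the 14 genes of annexin receptors and membrane repair 7 were tested, and 1 was lower in the Sst libraries, 0 were higher and 6 did not pass, where 3.04% of all tested genes were called higher and 3.31% lower; DESeq2 and limma voom also called 0 higher, and edgeR gave 0 at an unadjusted p under 0.05. Cav1, the caveolin of membrane pits, stood at 5.75, 2.2, 0 and 0.271 CPM in the Sst libraries against 28.6, 23.2, 55.1 and 35.4 CPM in the Trpv1 libraries, with a log2 ratio of -4.16 (SE 0.699; edgeR adjusted p = 0.000295). Every Sst library lay below every Trpv1 library, and without Sst replicate 1 the fitted value was -5.55. Cav1 is also known from endothelium, whose 8 markers summed to 8.86 to 76.1 CPM in the Sst and 10.7 to 43.5 CPM in the Trpv1 libraries. Capn2, a calcium-activated protease gene and the one with the highest CPM of the list, averaged 253 ± 16.9 CPM in Sst and 244 ± 21.5 CPM in Trpv1 libraries (n = 4 each, SD; edgeR adjusted p = 0.922).

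**Figure D5:**
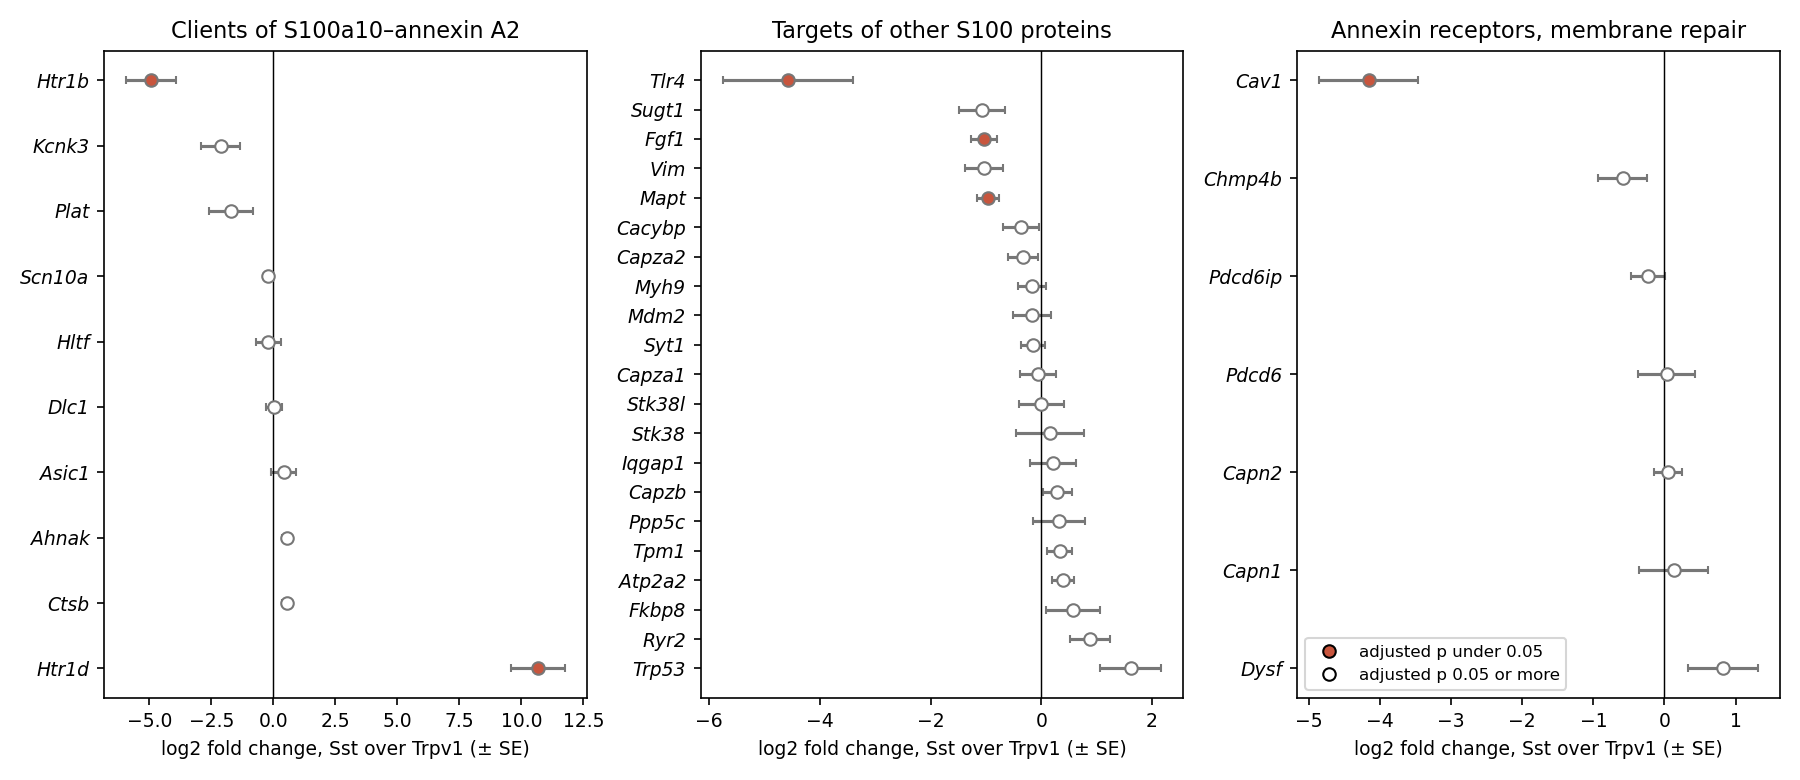
Log2 fold change, Sst over Trpv1, ± SE (horizontal axes, each with its own range) for tested clients of S100a10 with annexin A2, targets of other S100 proteins, and annexin receptors with membrane repair genes, fitted with edgeR over 4 Sst and 4 Trpv1 libraries. Red points have an adjusted p under 0.05 and white points do not. Htr1d and Htr1b lie at opposite ends of the left panel, while Scn10a lies at -0.21; the fitted value of Htr1d depends on the prior count, since its Trpv1 group held 1 count.

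The genes closest in pattern were taken by the root mean square difference of log2 CPM, each gene centred on its own mean over the 8 libraries, among 3584 tested genes. For S100b they were Pygb, brain glycogen phosphorylase, at 544 ± 158 CPM in Sst and 154 ± 35.2 CPM in Trpv1 libraries, Slc6a17, a transporter of synaptic vesicles, and Arhgap44, with differences of 0.172, 0.261 and 0.267 (n = 4 each, SD). Over all 3584 genes the median difference from S100b was 0.986. For S100a10 they were Dctn4, a subunit of dynactin, Atp6v1h, a subunit of the vesicular proton pump, and Dynll1, a dynein light chain, with differences of 0.160, 0.193 and 0.221 and a median of 0.631. For Anxa2 they were Mef2d, a transcription factor, Capzb, a subunit of the actin capping protein, and Tex2, with differences of 0.122, 0.126 and 0.155 and a median of 0.601. Capzb stood at 227 CPM in Trpv1 replicate 4 and 104 to 123 CPM in the other Trpv1 libraries, where Anxa2 was likewise highest in replicate 4. Trpv1 replicate 4 was the highest of its group for 6 of the 9 tested members and Sst replicate 4 for none.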

How the data were processed

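Per the labels' protocols, ganglia were dissociated, fluorescent neurons were picked by hand with 1 sample per genotype in each session, and RNA was amplified with the Ovation system before Nextera XT libraries were made. The authors deposited a table of raw read counts by gene symbol. The tools were bcl2fastq 2.17, Trimmomatic 0.33 and featureCounts, and the build GRCm38, per the submitters' processing notes. The sources used here do not name the aligner or annotation, or say how strand and multiply mapped reads were treated. Each of the 8 columns bears the name of 1 sample. Over the 12 pairs of libraries within a group, chi-square per degree of freedom was 40 to 100, and no library was treated as a repeat. The labels call the 4 samples of a genotype independent.

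Counts were filtered with edgeR 4.0.16 (R 4.3.3) at a minimum count of 10, which left 11828 genes, scaled with TMM factors and compared with the quasi-likelihood F test (robust, 1 group term), with p-values adjusted over all tested genes after Benjamini and Hochberg. Tested on simulated data, the fit missed most of the changed genes, and more of its calls were false than the threshold allows, so an adjusted p near the threshold is weak evidence. CPM values carry the same scaling, and log2 CPM a prior count of 2. Levels per length divide CPM by the union of GENCODE M21 exons. Alternatives were RLE size factors, no filter, DESeq2 1.42.0, a CPM minimum of 5 in 4 libraries, limma 3.58.1 (voom with sample quality weights), a replicate block, each library left out, the 6 libraries with Xist, the 4 libraries with at most 10 counts of Gh and Prl, and, chosen after seeing the data, the older quasi-likelihood estimator of edgeR. The members and gene lists were chosen with earlier results of these data known. Genes named outside the members are those called in the lists of family members and partners, the gene with the highest CPM of each list and the 3 genes of closest pattern to S100a10, Anxa2 and S100b (mean log2 CPM 5 or more). S100a8, Anxa4, Anxa7, Scn10a, Asic1, Kcnk3, Htr4, Ager, the Fpr genes and the single cell markers are given for their role, chosen after their values were seen. The spellings S100a7l2 and S100p matched no symbol.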

Additional observations from a re-analysis of the deposited data

Results flagged for a closer look

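In 11 of 84 groups of 4 libraries the highest or lowest library stood far from the other 3. The rule flags about 1 in 20 groups of independent, normally distributed values. CPM near 0 and groups that share libraries do not meet that condition, so no excess over chance is read from the count. Among the members, S100a6 stood at 163 CPM in Sst replicate 2 against 88.4 to 93.2 CPM in the other Sst libraries, and S100a13 at 12.8 CPM in the same library against 3.51 to 5.06 CPM. S100a4 stood at 7.61 CPM in Trpv1 replicate 4 against 0.509 to 1.39 CPM in the other Trpv1 libraries, and S100a16 at 1.29 CPM in Sst replicate 1 against 0 in the other Sst libraries. Tlr4 stood at 1.29 CPM in Sst replicate 1 against 0 to 0.181 CPM, Atp6v1h at 61.4 CPM in Sst replicate 2 against 49.4 to 50 CPM, and Capzb at 227 CPM in Trpv1 replicate 4 against 104 to 123 CPM. Among the marker sums, fibroblast markers reached 439.9 CPM in Sst replicate 4 against 59.6 to 76.9 CPM in the other Sst libraries. Pituitary markers reached 454 CPM in Sst replicate 2 against 0.0903 to 3.87 CPM in the other Sst libraries, and were at 0 CPM in Trpv1 replicate 4 against 1627 to 1742 CPM in the other Trpv1 libraries. Peptidergic nociceptor markers reached 2592 CPM in Trpv1 replicate 4 against 1893 to 1943 CPM.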

How the results depend on the processing

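S100a11 kept a log2 fold change between -5.15 and -3.97 and S100b between 1.42 and 1.79 over 17 alternatives. In the 4 libraries with at most 10 counts of Gh and Prl (3 Sst and 1 Trpv1, the lone sample assumed to vary like the Sst libraries) the value of Anxa2 was -0.50 and that of S100a13 -1.0, both of opposite sign, and the median over the members was -1.0; 15 genes were then called higher and 37 lower, and 0 of the other S100 genes, other annexins, targets or repair genes were called in either direction, with 0 clients lower. In the 6 libraries with Xist 122 genes were called higher and 183 lower, with 0 other S100 genes and 0 targets lower and 0 other annexins higher. The older edgeR estimator called 247 genes lower and 0 other S100 genes. With limma voom, and with no filter, 2 clients were called higher. Under the stricter filter none of the other S100 genes was tested, so 0 could be called. Leaving out single libraries gave 222 to 411 genes higher and 222 to 347 lower, 0 to 1 other S100 genes lower, 0 to 1 other annexins higher, 1 to 2 clients higher, 0 to 1 targets higher and 2 to 3 lower, and a median over the members from -0.24 to 0.31. Without single libraries Capn2 ran from -0.01 (without Trpv1 replicate 3) to 0.12. The causes were not tested, and the fits without some libraries also held fewer samples. Same-numbered libraries did not deviate together (correlations from -0.030 to 0.032, none over 0.1, and 1 of 4 Sst libraries closest to its own number), and the labels tie no number to a picking session, so no pairing was assumed, although each session held both genotypes; with a replicate block 282 genes were called higher and 290 lower, and S100a11 was at -4.59.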

Other observations

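S100pbp, a nuclear protein gene named for binding an S100 protein and itself outside the family, was noticed after its values were seen. It stood at 48.2, 40.9, 39.5 and 29.3 CPM in the Sst libraries against 111, 89.8, 103 and 54.4 CPM in the Trpv1 libraries. Every Sst library lay below every Trpv1 library, with Trpv1 replicate 4 the nearest, and the log2 fold change was -1.18 (SE 0.318; edgeR adjusted p = 0.0256).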
